A study of Mus musculus with 12 samples.

Results

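The arms of the miR-297, miR-466, miR-467 and miR-669 families are mouse microRNAs, some of which hold short repeats of alternating bases. Mature sequences were available for only 8 arms, of which 6 held a run of at least 8 alternating bases. The arms were taken from the expression table by name, as every arm whose name begins with any of these 4 family names. They numbered 76 of the 1519 arms listed (5.003%). The miR-466 family held 31 arms, miR-669 26, miR-467 13 and miR-297 6. Arms of near-identical copies can carry the same reads. In all, 12 sets, holding 26 of the arms, had identical values in all 12 libraries, and after each such set was merged into 1 row 62 distinct rows remained. Merging went by values alone, so some untested rows of very few reads, such as that of miR-466o-3p (1 read), also hold arms outside the families.

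A microRNA hairpin is cut from a longer transcript by the nucleases Drosha and Dicer and yields a 5p and a 3p arm, either of which may be loaded into an Argonaute protein, where its seed pairs with target mRNAs. These families multiplied in rodents by tandem duplication inside an intron of Sfmbt2, a Polycomb-group gene that in the mouse is imprinted and expressed from the paternal copy in extraembryonic tissue, and the cluster is best known from the placenta and from embryonic stem cells. In RefSeq (GRCm38.p6), 71 of the 81 hairpin genes of the 4 families lay within Sfmbt2 on chromosome 2, and all 71 fell in 1 intron and overlapped no exon of the GENCODE annotation. Within that intron the order miR-467, miR-466, miR-669 recurred in 11 neighbouring triplets. The arm miR-467a was encoded by 10 of these hairpins, miR-669a by 12 and miR-466b by 8, whereas miR-467c, miR-467e and miR-669c each had 1 hairpin.

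Small RNA from whole skin of C57BL/6 mice aged 6-8 weeks had been sequenced with 3 libraries at each of 4 ultraviolet B doses. The control skin received 0 mJ/cm2 and the irradiated groups 90, 180 or 360 mJ/cm2 from a phototherapy lamp (model SS-03B). All groups shared strain, age range, tissue and library protocol, and the sources used here do not give the interval between irradiation and sampling. Nothing in the labels ties replicates to separate animals, so p-values cover the spread from library to library, which may be technical. In whole skin, fewer cells of a type and less RNA per cell cannot be told apart.

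The RefSeq table held mature sequences for 8 of the 76 arms, and none for miR-467a-5p, miR-467c-5p, miR-669c-5p or miR-669a-5p. The 4 shown each hold a run of at least 8 alternating bases. They include miR-466q, an arm that was lower in every library at the top dose than in control skin. They also include miR-466i-3p, the partner of an arm that rose. All 8 come from hairpins outside Sfmbt2, and of these arms miR-466q alone was tested. Capitals mark the seed, bases 2 to 8.
miR-466q: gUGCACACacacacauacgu
miR-466i-3p: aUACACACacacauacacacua
miR-467f: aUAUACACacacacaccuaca
miR-669n: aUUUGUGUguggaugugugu
The 8 sequences had 8 distinct seeds. The longest alternating run of A and C was 12 bases in miR-466q, 11 in miR-466i-3p and 12 in miR-467f, and miR-669n instead held 8 alternating bases of G and U. A run of at least 8 alternating bases (A and C, G and U, or A and U) was found in 6 of the 8 sequences. Outside these families it was found in 7 of the 1671 arms searched (0.419%). That search left out the arms of a single chromosome. The miR-466q hairpin lies on chromosome 3, where RefSeq places its mature arm at chr3:28419988-28420007 on the plus strand, and miR-466i lies on chromosome 13 (chr13:17747552-17747573 for the 3p arm, plus strand); both are outside Sfmbt2.

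A fixed level in CPM set which arms were compared, and library depth set how many reads that level stood for. The deposited CPM values (counts per 1000000 reads assigned to microRNAs) corresponded to 3164422 to 8063815 reads per library, so that 1 read was worth 0.124 to 0.316 CPM and 3 reads, the limit that a count of 0 allows, 0.372 to 0.948 CPM. A row was tested when it reached 1 CPM in at least 3 of the 12 libraries. This left 21 of the 62 rows, which hold 30 of the 76 arms: 8 rows of miR-466, 6 of miR-467, 6 of miR-669 and 1 of miR-297. Of these 21 rows, 10 reached 1 CPM in all 12 libraries, while 6 did so in irradiated libraries only. The latter could pass only through the groups in which they were high. Just inside the limit were miR-669d-5p, miR-467d-5p and miR-466q with means of 0.745, 0.780 and 0.723 CPM, and just outside it, with 2 libraries at 1 CPM, were rows such as miR-669e-5p (0.765 CPM) and miR-297b-5p (0.360 CPM). The 41 rows not tested had between 1 and 39 reads over all libraries together.

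Across the whole table the first principal component of log2(CPM + 1) took 50.1% of the variance and ran with dose from the control libraries (-15.9 to -12.5) to those at 360 mJ/cm2 (8.83 to 12.7). Replicate 3 at 90 mJ/cm2, at 7.23, lay beyond the libraries at 180 mJ/cm2 (0.649 to 4.54). The skin's own microRNAs moved as well: the sum of 7 keratinocyte microRNAs was 81219 to 94933 CPM in control skin and 11646 to 36482 CPM at 360 mJ/cm2, and it was low already in replicate 3 at 90 mJ/cm2 (28121 CPM) and replicate 1 at 180 mJ/cm2 (41085 CPM). The 5 myeloid microRNAs summed to 458 to 622 CPM in controls and 3399 to 4691 CPM at 360 mJ/cm2. The part of these shifts in the results below was not tested, and calls that depend on a single library are named with them.

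The families as a whole were more abundant at every dose than in control skin. Summed over all rows, tested or not, with a pair of near-identical rows counted once, the level was 62.4, 67.5 and 73.8 CPM in the control libraries, 126, 107 and 194 CPM at 90 mJ/cm2, 131, 123 and 133.6 CPM at 180 mJ/cm2, and 225, 187 and 274 CPM at 360 mJ/cm2. No irradiated library overlapped the controls, and the libraries at 180 mJ/cm2 lay within the range of those at 90 mJ/cm2. The means were 67.9 ± 5.75 CPM for controls, 142 ± 46.0, 129 ± 5.66 and 229 ± 43.6 CPM (SD, n = 3 each) for the rising doses. These sums rested on 278 to 947 reads per library, and no p-value is given for them because they pool arms of unequal depth. A single row, miR-467a-5p with miR-467b-5p, made up 22.7%, 24.8% and 37.8% of the sum in the control libraries, 34.2% to 42.7% at the lower doses and 46.0% to 47.1% at 360 mJ/cm2, so that control replicate 3 overlapped the lower doses. Without that row the sum was 48.3 ± 2.42 CPM in controls and 122 ± 22.1 CPM at 360 mJ/cm2, again with no overlap.

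**Figure D1:**
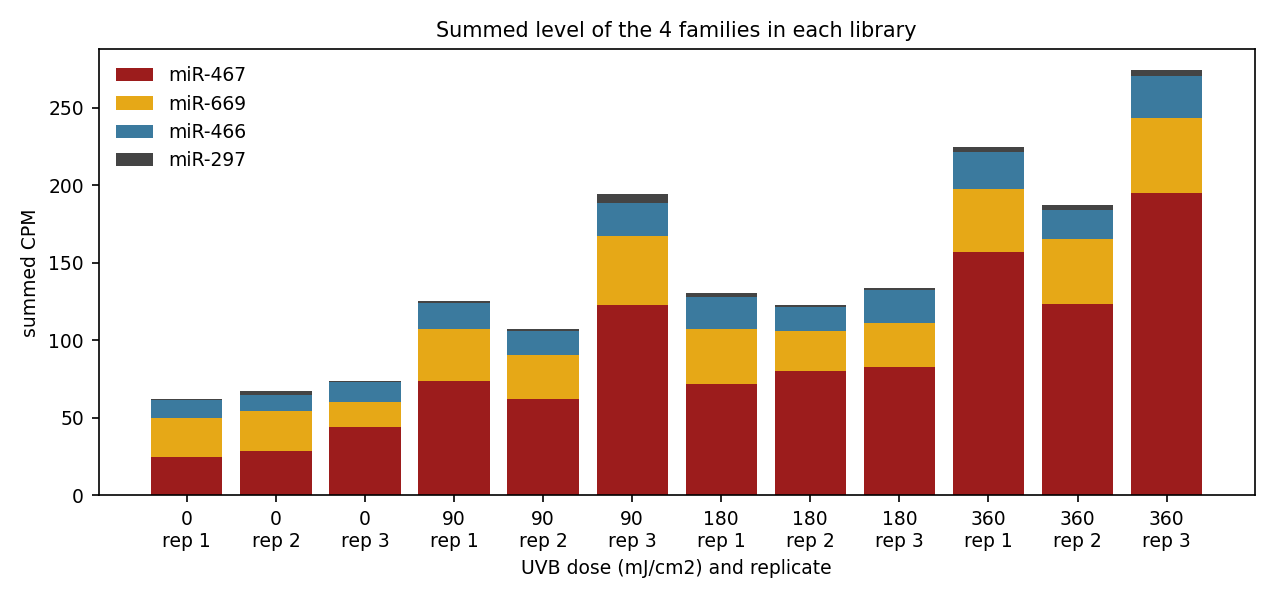
Summed CPM (y axis) of all arms of the 4 families in each of the 12 libraries (x axis: dose in mJ/cm2 and replicate), with 1 colour per family. The control libraries reach 62.4 to 73.8 CPM and those at 360 mJ/cm2 187 to 274 CPM, and miR-467 makes up most of every irradiated bar.

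The sum was split by family. The miR-467 sum was 32.4 ± 10.3 CPM in control skin and 159 ± 36.0 CPM at 360 mJ/cm2, and its share of the total of the 4 families was 39.6%, 42.2% and 59.7% in the control libraries and 65.9% to 71.3% at 360 mJ/cm2. Control replicate 3 was above replicates 1 and 2 at 90 mJ/cm2 (58.8% and 57.9%) and replicate 1 at 180 mJ/cm2 (54.7%). The miR-669 sum was 22.3 ± 5.51 CPM in controls and 43.5 ± 3.96 CPM at 360 mJ/cm2. The corresponding miR-466 values were 11.7 ± 1.18 and 23.2 ± 4.14 CPM, and those of miR-297 1.52 ± 0.989 and 3.37 ± 0.366 CPM (SD, n = 3 each). The 41 rows too low to test summed to 5.04 ± 1.17 CPM in controls, 8.70 ± 1.84 at 90, 10.01 ± 1.48 at 180 and 12.7 ± 1.69 CPM at 360 mJ/cm2 (14 to 58 reads per library). These rows were left out of the tests for their low level, so this sum stands beside the tests and is no part of them.

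Each row was then compared between doses with limma on log2(CPM + 1), with Benjamini-Hochberg adjustment over all 577 rows tested and a threshold of 0.05; fold changes are on this scale and understate the change of low rows. At 90 mJ/cm2, 5 of the 21 family rows were called higher than control (23.8%) and 0 lower, where 13.0% of all tested rows were called higher and 12.7% lower. At 180 mJ/cm2, 3 were higher (14.3%) and 0 lower, against 16.6% and 14.4% of all rows. At 360 mJ/cm2, 11 were higher (52.4%) and 0 lower, against 19.4% and 20.1% of all rows. The share called higher was thus near that of all rows at 180 mJ/cm2 and above it at 360 mJ/cm2; the difference was not tested. The median log2 fold change of the 21 rows was 0.44, 0.52 and 0.91 at the rising doses, and that of all 577 rows 0.01, 0.05 and -0.02. The 3 contrasts share the control libraries.

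**Figure D2:**
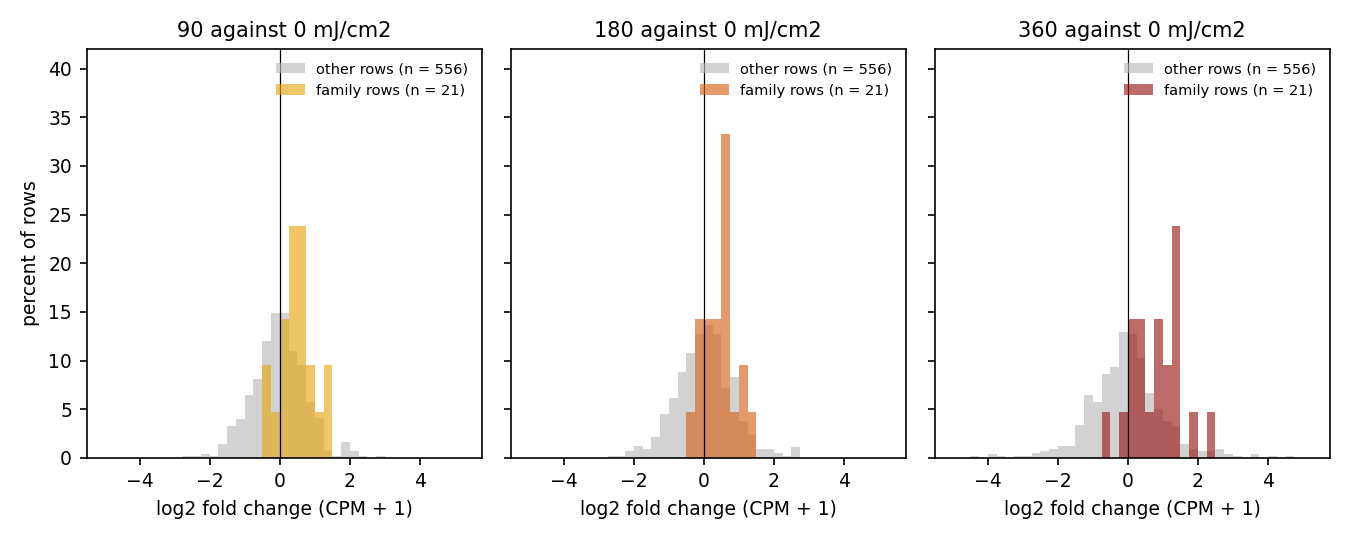
Distribution of the log2 fold change against control on the log2(CPM + 1) scale (x axis) at each dose, as the percent of rows (y axis), for the 21 family rows (coloured) and the 556 other tested rows (grey). Of the 21 family rows 18, 17 and 19 lie to the right of 0, with medians of 0.44, 0.52 and 0.91.

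The order of single libraries was compared as well. All 3 libraries at 90 mJ/cm2 lay above all 3 controls for 9 of the 21 rows, where 19.2% of all rows did so. At 180 mJ/cm2 this held for 11 rows, against 23.6% of all rows, and at 360 mJ/cm2 again for 11, against 25.5%. The opposite, with all libraries below the controls, occurred for 0 rows at 90 and 180 mJ/cm2 and for 1 row, miR-466q, at 360 mJ/cm2, where 18.2%, 18.7% and 23.7% of all rows did so. Fold changes were positive for 18, 17 and 19 of the 21 rows at 90, 180 and 360 mJ/cm2. The counts above the controls include rows that reached 1 CPM in irradiated libraries only, whose separation is in part set by that limit. These were miR-466h-5p and miR-467e-3p at 90, miR-466c-5p and miR-466h-5p at 180, and miR-467d-5p and miR-467e-3p at 360 mJ/cm2. Each count also holds both rows of a near-identical miR-466 pair (miR-466a-3p/miR-466e-3p and miR-466b-3p/miR-466c-3p/miR-466p-3p).

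The calls concentrated in the more abundant rows. Among rows with a mean of at least 3 CPM, 9 of 10 family rows were higher at 360 mJ/cm2, beside 22.1% of 429 rows in the table. These 9 include both rows of the near-identical miR-466 pair. Below 3 CPM it was 2 of 11, beside 11.5% of 148 rows. Of the 15 rows that reached 1 CPM in a control library too, 9 were called higher at 360 mJ/cm2, again with both rows of that pair. Of the 6 that reached it in irradiated libraries only, 2 were called higher (miR-467d-5p and miR-467e-3p). Among all tested rows it was 19.4%. The split by control libraries itself depends on the change, and the part of the limit in the calls was not tested. Leaving out control replicate 1 gave 3, 1 and 7 family rows called higher at the rising doses, beside 4.33%, 7.45% and 14.0% of all rows. Without replicate 3 at 90 mJ/cm2 it was 3 family rows at that dose beside 6.59% of all rows, and without replicate 3 at 180 mJ/cm2 it was 1 at that dose beside 9.19%. The share of all rows called higher at 90 mJ/cm2 was also lower without replicate 2 of that dose (8.67%, against 13.0% with all libraries), where 5 family rows were called. With both libraries that were low in keratinocyte microRNAs left out, 2, 3 and 10 family rows were called higher, beside 6.07%, 13.0% and 19.2% of all rows.

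**Figure D3:**
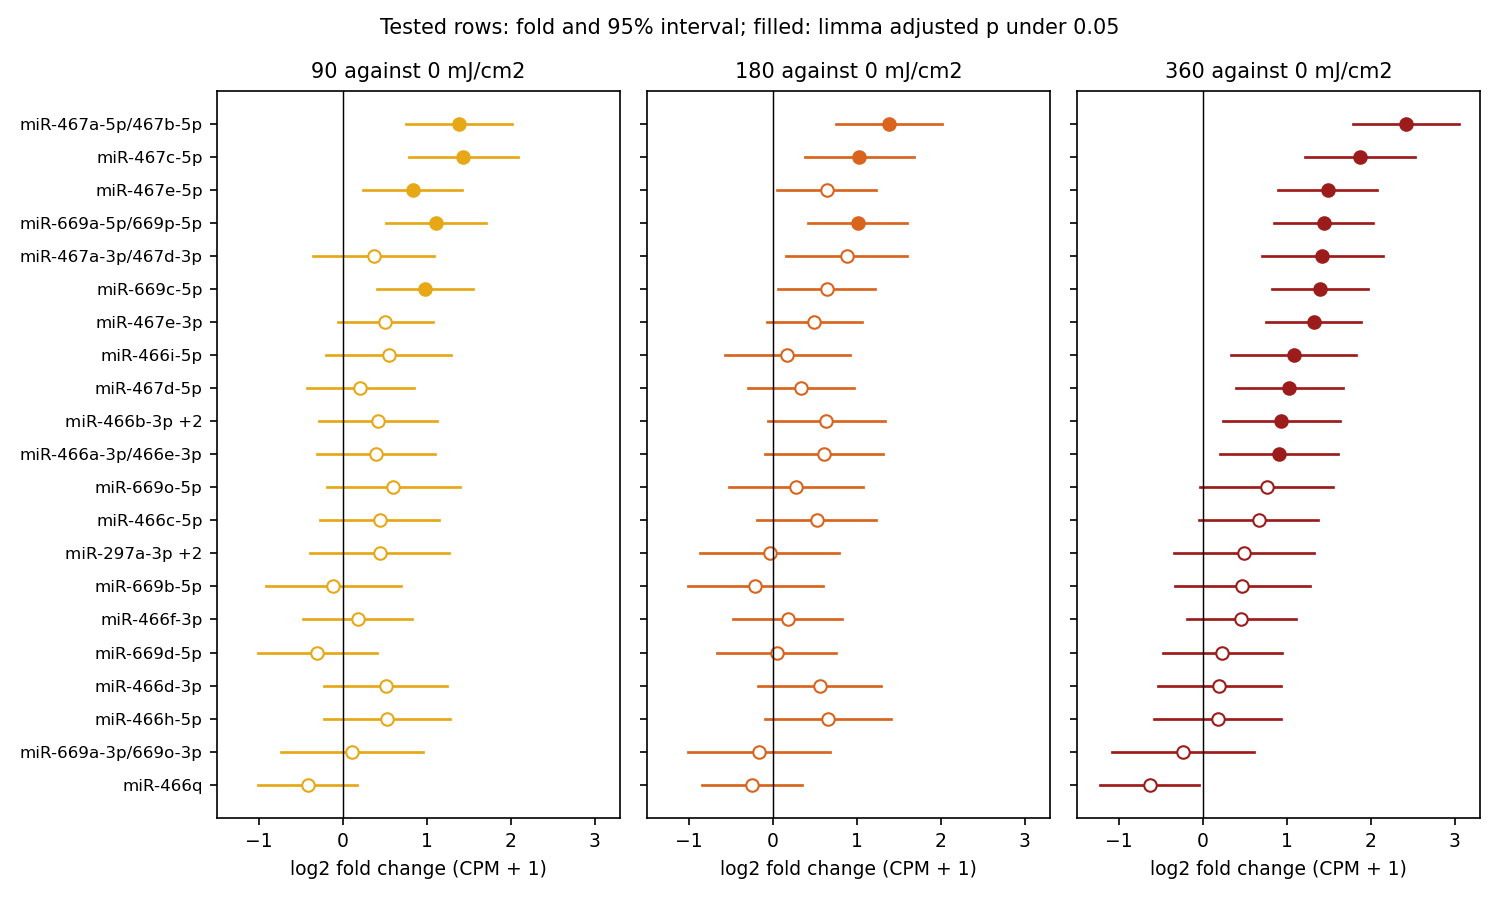
Log2 fold change against control on the log2(CPM + 1) scale (x axis) of each of the 21 tested rows (y axis, in order of the change at 360 mJ/cm2) at 90, 180 and 360 mJ/cm2; points are limma estimates, bars their 95% intervals, and filled points have an adjusted p under 0.05. Filled points number 5, 3 and 11, all to the right of 0, and miR-467a-5p/miR-467b-5p leads at 360 mJ/cm2 with 2.42.

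In the miR-467 family 6 of 6 tested rows were called higher at 360 mJ/cm2, beside 19.4% of all tested rows. The family's median fold change was 1.46. Of the 6 rows 2 had entered the tests only through irradiated libraries, and the family has 11 distinct rows in all. At 90 and 180 mJ/cm2, 3 and 2 of the 6 rows were called higher, beside 13.0% and 16.6% of all tested rows. The most abundant family row was miR-467a-5p with miR-467b-5p, which measured 14.1, 16.7 and 27.9 CPM in control skin, 44.0, 38.1 and 77.0 CPM at 90, 44.7, 52.4 and 55.3 CPM at 180, and 104, 86.1 and 129 CPM at 360 mJ/cm2. Every irradiated library exceeded every control, and every library at 360 mJ/cm2 exceeded all others. The means were 19.6 ± 7.31, 53.1 ± 20.9, 50.8 ± 5.48 and 106 ± 21.5 CPM (SD, n = 3 each), on 101 to 423 reads per library.

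Against control, miR-467a-5p rose by 1.38 at 90 mJ/cm2 on the log2 scale (95% interval 0.75 to 2.01, limma adjusted p = 0.0056). At 180 mJ/cm2 the rise was the same in size (1.38, interval 0.75 to 2.02, adjusted p = 0.0046), and at 360 mJ/cm2 it was 2.42 (1.79 to 3.05, adjusted p = 2.5e-05). These 3 calls held under each alternative that was run, with adjusted p no higher than 0.034, 0.025 and 0.00035 respectively. Leaving out replicate 3 at 90 mJ/cm2, the highest of its group, gave 1.09 at that dose (adjusted p = 0.029).

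The related arm miR-467c-5p, from a hairpin with 1 copy, was also higher at each dose, at a lower level. It measured 6.08, 6.78 and 10.6 CPM in controls, 21.3, 15.9 and 32.6 CPM at 90, 15.3, 18.2 and 16.4 CPM at 180, and 30.1, 22.1 and 42.7 CPM at 360 mJ/cm2. All irradiated libraries were above all controls, and replicate 3 was the highest at 90 and at 360 mJ/cm2. It rose by 1.44 (adjusted p = 0.0056), 1.03 (adjusted p = 0.021) and 1.87 (adjusted p = 0.00025) at the rising doses. The call at 180 mJ/cm2 was lost without control replicate 1 (adjusted p = 0.085), control replicate 2 (0.062) or replicate 2 or 3 at that dose (0.063 and 0.057).

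Another 5p arm, miR-467e-5p, was less abundant. Its levels were 1.36, 1.99 and 2.39 CPM in controls, 4.14, 3.02 and 5.54 CPM at 90, 3.46, 2.94 and 4.15 CPM at 180, and 8.87, 5.46 and 7.27 CPM at 360 mJ/cm2. No irradiated library overlapped the controls at any dose. The rise was 1.49 at 360 mJ/cm2 (adjusted p = 0.00065) and 0.83 at 90 mJ/cm2 (adjusted p = 0.040), while the value at 180 mJ/cm2, 0.64, missed the threshold (adjusted p = 0.093). At 90 mJ/cm2 the call was lost without control replicate 1 (adjusted p = 0.16), control replicate 2 (0.078), or replicate 1 (0.076) or 3 (0.18) of that dose, with no filter on low values (0.12) and in a fit of those 2 groups alone (0.089).

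Among the 3p arms of these hairpins 2 rows were tested, and both passed at the top dose, where 19.4% of all tested rows were called higher. The row of miR-467a-3p with miR-467d-3p measured 2.23, 1.65 and 2.39 CPM in controls, 1.77, 2.80 and 4.93 CPM at 90, 6.64, 3.77 and 3.95 CPM at 180, and 8.87, 4.42 and 9.48 CPM at 360 mJ/cm2. The libraries at 180 and 360 mJ/cm2 lay above the controls, those at 90 mJ/cm2 overlapped them. It rose by 1.42 at 360 mJ/cm2 (limma adjusted p = 0.0038), with 0.37 at 90 (adjusted p = 0.46) and 0.88 at 180 mJ/cm2 (adjusted p = 0.061). Leaving out replicate 3 at 90 mJ/cm2 or replicate 2 at 360 mJ/cm2 brought the value at 180 mJ/cm2 to adjusted p of 0.047 and 0.0499.

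The arms miR-467e-3p and miR-467d-5p were near the limit of detection, with 1 to 11 and 0 to 8 reads per library. The level of miR-467e-3p was 0.620, 0.496 and 0.266 CPM in controls and 1.97, 2.86 and 3.16 CPM at 360 mJ/cm2, and that of miR-467d-5p 0, 0.662 and 0.266 CPM in controls and 1.48, 1.04 and 2.53 CPM at 360 mJ/cm2. For both arms the libraries at 360 mJ/cm2 stood above all 9 others, but miR-467d-5p entered the tests only through those libraries and miR-467e-3p only through irradiated ones, so their separation is in part set by the limit of 1 CPM. The first rose by 1.32 (adjusted p = 0.0012) and the second by 1.03 (adjusted p = 0.013) at that dose, the latter lost without control replicate 1 (adjusted p = 0.069) or replicate 3 at 360 mJ/cm2 (0.058). Neither passed at 90 or 180 mJ/cm2. The other 3p arms of these hairpins, miR-467b-3p and miR-467c-3p, averaged 0.051 and 0.475 CPM and were not tested.

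**Figure D4:**
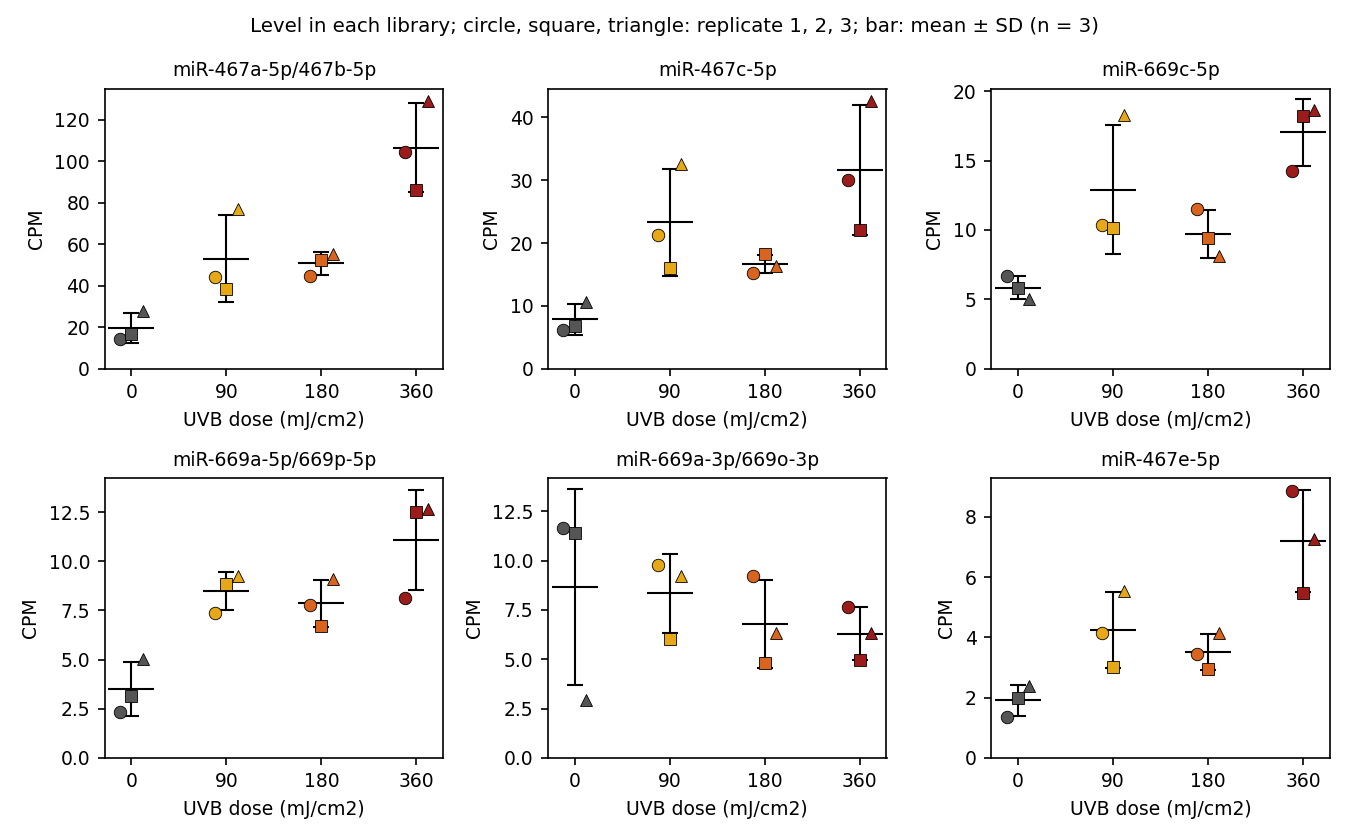
CPM (y axis) in each library at 0, 90, 180 and 360 mJ/cm2 (x axis) for 6 of the 8 most abundant family rows; circles, squares and triangles are replicates 1, 2 and 3, long bars the means and whiskers the SD (n = 3). The 5 rows of 5p arms shown are higher in irradiated libraries, from 19.6 to 106 CPM for miR-467a-5p, and miR-669a-3p/miR-669o-3p overlaps its controls at each dose. Not shown are miR-466i-5p, a 5p arm that overlaps its controls at 90 and 180 mJ/cm2, and miR-467a-3p/miR-467d-3p. The latter, a row of 3p arms, was called higher at 360 mJ/cm2 (log2 fold change 1.42, limma adjusted p = 0.0038).

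In the miR-669 family 2 of 6 rows were called higher at 360 mJ/cm2, beside 19.4% of all tested rows. The family's median fold change was 0.61. Both rows called were 5p arms. The level of miR-669c-5p was 6.70, 5.79 and 5.05 CPM in controls, 10.3, 10.1 and 18.3 CPM at 90, 11.5, 9.43 and 8.10 CPM at 180, and 14.3, 18.2 and 18.6 CPM at 360 mJ/cm2. Every irradiated library was above every control. The rise was 0.98 at 90 (adjusted p = 0.018) and 1.40 at 360 mJ/cm2 (adjusted p = 0.00082), with 0.64 at 180 mJ/cm2 short of the threshold (adjusted p = 0.085). The call at 90 mJ/cm2 was lost without replicate 3 of that dose (0.72, adjusted p = 0.093) and in a fit of those 2 groups alone (0.059).

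The row of miR-669a-5p with miR-669p-5p measured 2.36, 3.14 and 5.05 CPM in controls, 7.39, 8.83 and 9.24 CPM at 90, 7.79, 6.71 and 9.09 CPM at 180, and 8.13, 12.5 and 12.6 CPM at 360 mJ/cm2. Again no irradiated library overlapped the controls, while the doses overlapped each other. It rose by 1.11 (adjusted p = 0.012), 1.01 (adjusted p = 0.014) and 1.44 (adjusted p = 0.00082). Without control replicate 1 the calls at 90 and 180 mJ/cm2 were lost (adjusted p = 0.065 and 0.073), as was that at 180 mJ/cm2 without replicate 3 of that dose (0.059).

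The opposite arm of the same hairpins passed at no dose. The row of miR-669a-3p with miR-669o-3p measured 11.7, 11.4 and 2.92 CPM in controls, 9.75, 6.03 and 9.24 CPM at 90, 9.23, 4.82 and 6.32 CPM at 180, and 7.64, 4.94 and 6.32 CPM at 360 mJ/cm2. Control replicate 3 was the lowest of the 12 libraries and the other 2 controls the highest, so every dose overlapped the controls. The change at 360 mJ/cm2 was -0.24 with an interval from -1.09 to 0.61 (limma adjusted p = 0.67), and those at 90 and 180 mJ/cm2 were 0.11 (adjusted p = 0.86) and -0.17 (adjusted p = 0.78). Control replicate 3 decided this value: without it the row was called lower at 360 mJ/cm2 (-0.80, adjusted p = 0.048), and without control replicate 1 or 2 the change was 0.05 or 0.03.

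The 5p and 3p rows were also compared within each library, as the log2 ratio of their levels with 1 CPM added to both. The added 1 CPM pulls the ratio toward 0, most where the levels are low. For miR-669a it was -1.92, -1.58 and 0.62 in controls and ran from -0.36 to 1.18 in the 9 irradiated libraries, so that control replicate 3 lay inside their range. For miR-467a the ratio averaged 2.69 ± 0.43 in controls, 3.70 ± 0.33 at 90, 3.19 ± 0.53 at 180 and 3.68 ± 0.30 at 360 mJ/cm2 (SD, n = 3 each), with control replicates 2 and 3 (2.74 and 3.09) inside the range of the irradiated libraries (2.58 to 4.02). From control to 360 mJ/cm2 the mean ratio went from 0.99 to 1.16 for miR-467e and from -2.61 to -1.61 for miR-669o. It went from -1.26 to -1.66 for miR-467d and from -1.08 to -1.35 for miR-466c. The direction of these 2 falls and of the miR-467e rise depends on the added 1 CPM. The mean level of miR-467e-5p went from 1.91 to 7.20 CPM and that of miR-467e-3p from 0.461 to 2.66 CPM. The mean level of miR-467d-5p went from 0.309 to 1.68 CPM and that of its 3p row from 2.09 to 7.59 CPM. For miR-466c-5p it went from 0.411 to 1.32 CPM and for its 3p row from 2.00 to 5.01 CPM. An exact two-sided permutation test of all irradiated against control libraries, made on these 6 pairs after their values were seen, gave p = 0.027 for miR-467a (0.16 after adjustment over the 6 pairs) and 0.073 for miR-669a (0.22 adjusted), and 0 pairs passed. The rows merge arms of several hairpins, so these ratios do not belong to 1 precursor.

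The other miR-669 rows were low. The 5p arm miR-669o-5p measured 0.406 ± 0.189 CPM in controls and 1.59 ± 1.18 CPM at 360 mJ/cm2 (SD, n = 3), a change of 0.76 (adjusted p = 0.12), with replicate 2 at 360 mJ/cm2 (0.260 CPM) below all controls. Those of miR-669b-5p and miR-669d-5p were 0.47 (adjusted p = 0.34) and 0.23 (adjusted p = 0.62). Both had libraries with 0 reads, and their groups overlapped. The partner miR-669p-3p averaged 0.412 CPM and was not tested.

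Of the miR-466 family, the largest by number of arms, 3 of 8 rows were called higher at 360 mJ/cm2, with a median fold change of 0.56. At 90 or 180 mJ/cm2 it was 0 of 8. The shares of all tested rows called higher at the rising doses were 13.0%, 16.6% and 19.4%. The arm miR-466i-5p, encoded on chromosome 13, measured 2.23, 2.15 and 5.31 CPM in controls, 5.91, 3.02 and 6.16 CPM at 90, 5.48, 2.10 and 3.56 CPM at 180, and 8.13, 8.06 and 6.32 CPM at 360 mJ/cm2. Only the libraries at 360 mJ/cm2 cleared the controls. The rise there was 1.08 (95% interval 0.33 to 1.83, limma adjusted p = 0.023). It lost its call without control replicate 1 (adjusted p = 0.088) or 2 (0.093), or without replicate 1 (0.071) or 2 (0.065) at 360 mJ/cm2, and with no filter (0.051). Its partner miR-466i-3p, shown above, averaged 0.475 CPM and was not tested.

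The 2 other miR-466 rows that rose cannot be counted as separate findings, since miR-466a-3p with miR-466e-3p and miR-466b-3p with miR-466c-3p and miR-466p-3p differed by 1 read in 1 library. The former measured 1.61, 2.15 and 2.39 CPM in controls, 3.55, 2.59 and 2.87 CPM at 90, 3.17, 2.52 and 5.73 CPM at 180, and 5.17, 2.60 and 7.27 CPM at 360 mJ/cm2. All irradiated libraries lay above the controls, although replicate 2 at each dose (2.59, 2.52 and 2.60 CPM) lay close to the highest control (2.39 CPM). The changes at 360 mJ/cm2 were 0.91 (adjusted p = 0.039) and 0.93 (adjusted p = 0.035). They were lost without control replicate 1 (adjusted p = 0.12 and 0.10), control replicate 2 (0.074 for both), or replicate 1 (0.11 and 0.098) or 3 (0.17 and 0.15) at 360 mJ/cm2. TMM scaling (0.059 and 0.053), no filter (0.10 and 0.091) and a fit of those 2 groups alone (0.063 and 0.056) also ended these calls. With the pair counted once, 10 of 20 family rows were called higher at 360 mJ/cm2.

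The arm miR-466q, which has its own locus on chromosome 3, ran the other way. It measured 1.24, 1.32 and 0.797 CPM in controls, 0.296, 0.862 and 0.616 CPM at 90, 1.44, 0.419 and 0.593 CPM at 180, and 0.246, 0.520 and 0.316 CPM at 360 mJ/cm2, which is 1 to 10 reads per library. At 360 mJ/cm2 all 3 libraries lay below all 3 controls. The change of -0.64 (interval -1.23 to -0.04) missed the threshold in limma (adjusted p = 0.083). It was named here after its values were seen, as the only family row with that order of libraries. The arm reached 1 CPM only in control replicates 1 and 2 and in replicate 1 at 180 mJ/cm2. Its separation is therefore in part set by the limit of 1 CPM.

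The remaining miR-466 rows did not pass at any dose. The level of miR-466c-5p was 0.411 ± 0.106 CPM in controls and 1.32 ± 0.733 CPM at 360 mJ/cm2, a change of 0.66 (adjusted p = 0.13). For miR-466d-3p, miR-466f-3p and miR-466h-5p the changes at that dose were 0.19, 0.46 and 0.17, with overlapping groups. miR-466h-5p had 0 reads in replicates 1 and 2 at 360 mJ/cm2 and 1.90 CPM in replicate 3, while its libraries at 90 and 180 mJ/cm2 were all above the controls. The single miR-297 row, miR-297a-3p with miR-297b-3p and miR-297c-3p, measured 1.31 ± 1.17 CPM in controls and 2.04 ± 0.698 CPM at 360 mJ/cm2 (0.49, adjusted p = 0.34), and its highest library was replicate 3 at 90 mJ/cm2 (4.31 CPM). Of the other arm partners, miR-466e-5p and miR-466p-5p averaged 0.261 and 0.351 CPM and the row of miR-466b-5p and miR-466o-5p 0.665 CPM, all untested.

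By arm, 7 of 12 5p rows and 4 of 8 3p rows were called higher at 360 mJ/cm2, with medians of 1.05 and 0.70. The 3p count holds both rows of the near-identical miR-466 pair. At 90 mJ/cm2, 5 of 12 5p rows and 0 of 8 3p rows were called, with medians of 0.57 and 0.41. Of all tested rows 19.4% were called higher at 360 and 13.0% at 90 mJ/cm2. Whether the arms differed was not tested. The summed 5p level went from 46.7 ± 12.3 CPM in controls to 195 ± 35.9 CPM at 360 mJ/cm2 and the summed 3p level from 19.4 ± 7.07 to 30.6 ± 7.38 CPM (SD, n = 3 each).

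Between doses the table as a whole separated 360 mJ/cm2 from the lower doses only. From 90 to 180 mJ/cm2, limma called 0 of the 21 family rows, with 0 at an unadjusted p under 0.05 and 0 by edgeR or DESeq2, and 0.0% of all rows in either direction. The groups did not overlap for 0 family rows, where 4.68% of all rows were higher and 4.68% lower in that sense, and the median change of the family rows was 0.00. From 90 to 360 mJ/cm2, 1 row was higher, miR-467a-5p with miR-467b-5p, where 5.89% of all rows were called higher and 5.37% lower. Its change was 1.04 (interval 0.41 to 1.67, adjusted p = 0.037). This call was lost without replicate 1 or 2 at 90 mJ/cm2 (adjusted p = 0.16 each), replicate 2 at 180 mJ/cm2 (0.051) or replicate 1 or 3 at 360 mJ/cm2 (0.11 and 0.16), in edgeR (0.056) and with no filter (0.054). Without replicate 3 at 90 mJ/cm2, or without replicate 2 at 360 mJ/cm2, 2 rows were called.

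From 180 to 360 mJ/cm2, 0 family rows were called by limma, with 7 at an unadjusted p under 0.05, 0 in edgeR and 1 in DESeq2. In all rows 1.73% were called higher and 2.6% lower. The lowest adjusted p was that of miR-467a-5p, 0.061, with the same size of change as from 90 mJ/cm2 (1.04, interval 0.41 to 1.67). For 9 of the 21 rows all libraries at 360 mJ/cm2 lay above all at 180 mJ/cm2, where 13.2% of all rows did so. From 90 to 360 mJ/cm2 this held for 4 rows, where 17.2% did so. Both counts include miR-467d-5p and miR-467e-3p, which reached 1 CPM in irradiated libraries only. The median changes of the 21 rows were 0.49 from 180 and 0.43 from 90 mJ/cm2. Leaving out control replicate 3 or replicate 3 at 90 mJ/cm2 gave 1 call from 180 to 360 mJ/cm2.

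The replicate with the highest level was counted within each dose. Replicate 3 was the highest of its group for 14 of the 21 rows at 90 mJ/cm2, beside 38.5% of all rows, and for 15 of the 21 at 360 mJ/cm2, beside 26.7%. In control skin it was the highest for 10 of 21, beside 30.7%, and at 180 mJ/cm2 for 7 of 21, beside 39.2%, where replicate 1 was the highest for 9. Across the 12 libraries the log2 level of miR-467a-5p correlated with that of miR-467c-5p (r = 0.96), miR-467e-5p (0.95), miR-669a-5p (0.91) and miR-669c-5p (0.87). After group means were removed the same values were 0.94, 0.77, 0.56 and 0.27. With miR-669a-3p the correlation across the 12 libraries was -0.29 and with miR-466q -0.76, and after group means were removed -0.41 and -0.43. By the same removal miR-467e-3p went from 0.82 to -0.13 and miR-467d-5p from 0.74 to 0.24. These values describe 12 libraries in 4 dose groups that share depth and scaling, and some of these arms may share reads.

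Replicate 3 at 90 mJ/cm2 and replicate 1 at 180 mJ/cm2, both low in keratinocyte microRNAs, did not stand alike in these families. The summed level was 194 CPM in the former, above both other libraries of its dose (107 and 126 CPM), and 131 CPM in the latter, between its companions at 123 and 133.6 CPM. Skeletal muscle microRNAs, which took 193259 to 228888 CPM of control libraries, were lowest in replicate 3 at 180 mJ/cm2 (82046 CPM), where the family sum was 133.6 CPM. At 360 mJ/cm2 endothelial and fibroblast markers were higher than in controls as well (21891 to 25249 against 8303 to 8774 CPM for 2 endothelial arms, 32487 to 50711 against 24163 to 28136 CPM for 3 fibroblast arms). Both sums were above all controls at the lower doses too. The fibroblast sum was 38049 to 54925 CPM at 90 and 39875 to 53468 CPM at 180 mJ/cm2, and its lowest irradiated library was replicate 3 at 360 mJ/cm2. None of the marker arms was at 0 in any library, and their part in the family's rise was not tested.

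Arms with repeats outside the 4 families were compared as a second description. A run of at least 8 alternating bases was held by 6 such arms of the expression table, and of the 3 that were tested 1 fell and 1 rose. The most abundant, miR-574-5p, fell at 90 mJ/cm2 from 45.6 ± 13.4 to 25.05 ± 6.55 CPM (-0.83, limma adjusted p = 0.036) and measured 28.8 ± 4.11 CPM at 360 mJ/cm2 (-0.61, adjusted p = 0.083). The second, miR-672-5p, rose from 2.08 ± 0.843 to 4.86 ± 1.11 CPM at 180 mJ/cm2 (0.95, adjusted p = 0.042) and to 4.91 ± 2.29 CPM at 360 mJ/cm2 (0.91, adjusted p = 0.037). The third, miR-32-3p, was 2.79 ± 0.440 CPM in controls and 1.19 ± 0.960 CPM at 360 mJ/cm2 (-0.88, adjusted p = 0.073). Another large imprinted microRNA cluster, miR-379 to miR-410 on another chromosome, had 12, 16 and 13 of 52 tested arms higher at the rising doses. In that cluster 1, 2 and 4 arms were lower, and the median changes were 0.30, 0.40 and 0.31. Of all tested rows 13.0%, 16.6% and 19.4% were called higher and 12.7%, 14.4% and 20.1% lower. Differences between these lists and the 4 families were not tested.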

How the data were processed

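Per the labels' protocols, Trizol RNA from skin went into NEBNext small RNA libraries read by an Illumina NextSeq sequencer. The build mm9 comes from the submitters' processing notes. For the aligner, counter and microRNA release, nothing is stated in these sources. The deposited table gives CPM per microRNA arm, computed by the authors. Every column sums to 1000000 and 100% of values were whole multiples of 1 read (tolerance 0.01 read), so depth was recovered; without molecular identifiers, floors cover counting error only.

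Samples were grouped by the labels. Rows identical in all 12 libraries were merged, rows with 1 CPM or more in at least 3 libraries were kept, and limma 3.58.1 (trend, R 4.3.3) was fitted to log2(CPM + 1) over all 12 libraries with a mean per group and no block, two-sided. The code was tested on simulated data. edgeR 4.0.16 and DESeq2 1.42.0 on recovered reads, other pseudocounts, filters and scalings, a replicate block and leaving out each library were the alternatives. On recovered reads edgeR called 172, 203 and 256 of all rows at 90, 180 and 360 mJ/cm2, where limma on log2(CPM + 1) called 148, 179 and 228.

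Named arms are those called in any comparison, the 8 with the highest mean CPM, and their 5p or 3p partners. The members, the marker and comparison lists and the tests were chosen with earlier results of these data known. Mature sequences and hairpin loci come from RefSeq (GRCm38.p6), matched by name.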

Additional observations from a re-analysis of the deposited data

How the results depend on the processing

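At 90 mJ/cm2 the number of rows called higher (5) was 3 with only the 2 groups compared, 2 with replicate 3 at 90 and replicate 1 at 180 mJ/cm2 both left out (an alternative chosen after seeing the data), and 3 to 5 when each library was left out in turn. Leaving out libraries gave 1 to 4 at 180 and 7 to 11 at 360 mJ/cm2. For rows called lower at 360 mJ/cm2 (0), edgeR gave 1, miR-466q, and leaving out libraries 0 to 1. From 90 to 360 mJ/cm2 (1), no filter and edgeR gave 0, totals without miR-21a-5p or miR-1a-3p 3, both libraries out 2, and single libraries 0 to 2. From 180 to 360 mJ/cm2 (0), a limit of 5 CPM, DESeq2, the replicate block and only the 2 groups each gave 1, and single libraries 0 to 1. The causes were not tested.

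Directions that turned belonged to changes not called. For miR-466i-5p at 180 mJ/cm2 (0.17) the value was -0.093 with both libraries out and -0.093 to 0.50 without single libraries. For miR-669a-3p at 90 mJ/cm2 it was -0.16 in edgeR and -0.077 in DESeq2, and without single libraries -0.45 to 0.40 at 90, -0.72 to 0.12 at 180 and -0.80 to 0.048 at 360 mJ/cm2.

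Scaling by TMM moved the median of all rows at 360 mJ/cm2 from -0.02 to -0.11, and taking the same 2 arms out of the totals moved it to 0.20. Of all calls at that dose 49.1% were higher, against 41.4% and 64.2%. The families' median was 0.91, 0.83 and 1.18, with 11, 9 and 11 rows higher and 0 lower. The replicate block left 5, 3 and 11 rows higher. Same-numbered libraries did not pair (5 of 18 pairs had a correlation above 0.1, from -0.24 to 0.23; 3 of 12 libraries matched their own number best), so the block only shares a number. Depth limits rows below 3 CPM, which rest on few reads.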
